A study of Mus musculus with 10 samples.

Results

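The change in skin gene expression between 24h and 48h after a single dose of cyclophosphamide is described here across all genes. It was measured as the 2 libraries of 48h against the 2 libraries of 24h, which are 4 of the 10 libraries of the series. The other 6 libraries, 2 each of 0h, 6h and 12h, entered the same fit to estimate the spread and to place the step in time. Both groups were whole back skin of male wild type C57BL/6 mice, 7 to 8 weeks old, whose back hair had been stripped with wax. Cyclophosphamide in PBS was given into the peritoneum on day 9 after waxing at 150 mg/kg, and skin was collected 48h or 24h later. The 48h and 24h groups thus share strain, sex, depilation and drug, and differ by a day both since the injection and since waxing. Of the other times, 6h and 12h had the same dose, while 0h had none (0 mg/kg). The series used here holds no mice injected with vehicle, so drug and hair cycle cannot be told apart. The time of day of collection is not given in the labels. Nor do they say whether both libraries of a time are from different mice. The p-values therefore rest on the spread from library to library alone, and that spread may be technical.

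Waxing drives resting follicles together into growth (anagen). In a growing follicle the matrix cells at its base divide around the dermal papilla, and their daughters become either the keratin-filled hair shaft or the inner root sheath, the sleeve that moulds the shaft. Cyclophosphamide is activated in the liver to products that crosslink DNA and are most toxic to dividing cells, and in mice it is a standard model of hair loss from chemotherapy, in which the damage regulator p53 is required.

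The libraries carried the genes that define skin. Krt5 and Krt14 of basal keratinocytes, Krt1 and Krt10 of the layers above, Krt85 of the hair shaft and Col1a1 of dermal fibroblasts were present in every library, the lowest being 185 FPKM of Krt1. FPKM (a fragment count divided by transcript length and by the fragments mapped) summed to between 862653 and 978550 per library, and 12662 to 13096 genes reached 1 FPKM. Absolute depth is not known from FPKM, so no counting interval can be given. Hair shaft keratins and keratin-associated proteins held 17.7% and 15.7% of the summed FPKM in 48h libraries 2 and 3, against 18.7% and 15.6% in 24h libraries 2 and 3. Blood content differed within both times: the 5 haemoglobin rows summed to 67.7 and 9.97 FPKM at 48h, against 934 and 48.9 FPKM at 24h. In whole skin, fewer cells of a type and less RNA per cell cannot be told apart. All values below are given for library 2 and then library 3 of each time.

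Between 24h and 48h, 308 of 13625 genes tested passed the threshold, which is 2.26% (limma on log2(FPKM + 1), adjusted p under 0.05), and 2568 (18.8%) had an unadjusted p under 0.05. At 48h 166 genes were higher (1.22%) and 142 lower (1.04%). The median size of the called changes was 0.911 on the log2 scale, and 123 were at least 1, of which 59 were higher and 64 lower. The step carried far more calls than the one before it, since 24h against 12h had 3 (0.022%), while 24h against 0h had 452 (3.32%) and 48h against 0h had 1215 (8.92%). Whether a gene changed differently in the later step than in the earlier was tested directly as a second difference. No gene passed (0 by limma, with 1419 genes, or 10.4%, at an unadjusted p under 0.05) in the same test. With no filter on low values 1 gene passed, and with median-of-ratios scaling 11 did.

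With 2 libraries a time, the counts moved with single libraries and with scaling. In place of 308 there were 65 or 18 calls when 48h library 2 or 3 was left out, 30 or 191 when 24h library 2 or 3 was left out, and 189 or 190 when 0h library 2 or 3 was left out. A fit of the 48h and 24h libraries alone gave 0, with 2840 genes at an unadjusted p under 0.05. All 308 kept their sign in each of these fits, which could not have turned it. The 48h and 24h libraries of all 308 did not overlap. Leaving out a 0h library, or fitting 48h and 24h alone, leaves the difference itself unchanged. The balance of directions depended on scaling: 87 higher and 194 lower with median-of-ratios scaling, and 113 higher and 220 lower with quantile normalization. Only 11 calls passed with each of the 10 libraries left out in turn. Higher among them were Krt2, Fcgbp and Hamp, and lower were Kcnk16, Krt74, Arg1, Tubb3, Isg15, Selenbp1, Ero1l and 2310002L09Rik. Each of the other 297 calls was lost with at least 1 library left out. Since the 48h and 24h libraries stood apart in all 308 calls, such statements on called genes below describe the values and add no support. Of the calls described in what follows, Cma2, Mxd3, Gpha2, Abhd11os, Lig1, Tk1, Lef1, Wnt11, Tgfa, Krt5, Krt10, Usp18, Cd3e, Dbp, Tef, Cdc25b, Prc1, Cdc45, Rfc2, Tgm1 and Wnt7b share exon bases with a gene on the opposite strand in GENCODE, as do Cdkn1a and Shh, which were not called. Whether reads were assigned by strand is not given in the sources used here, so reads of such pairs may be mixed.

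**Figure D1:**
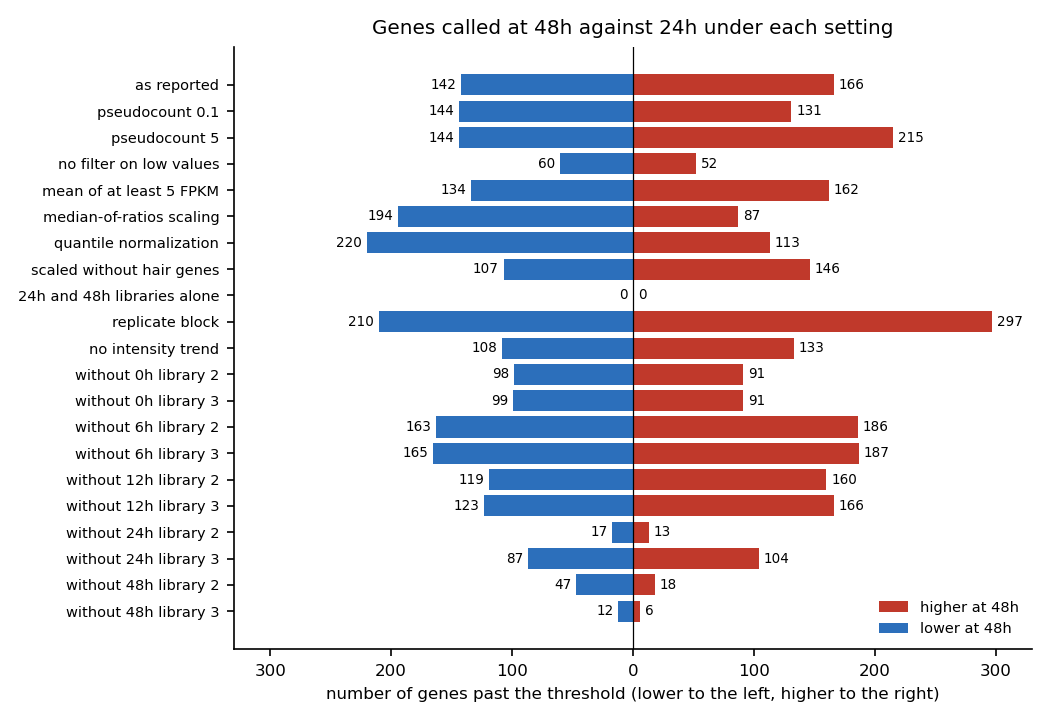
Number of genes past the threshold at 48h against 24h (x axis; higher to the right in red, lower to the left in blue) in the reported fit and under each of 20 other settings (rows). The reported fit has 166 higher and 142 lower, the fit without 48h library 3 has 6 and 12, and the fit of the 48h and 24h libraries alone has 0 and 0.

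**Figure D2:**
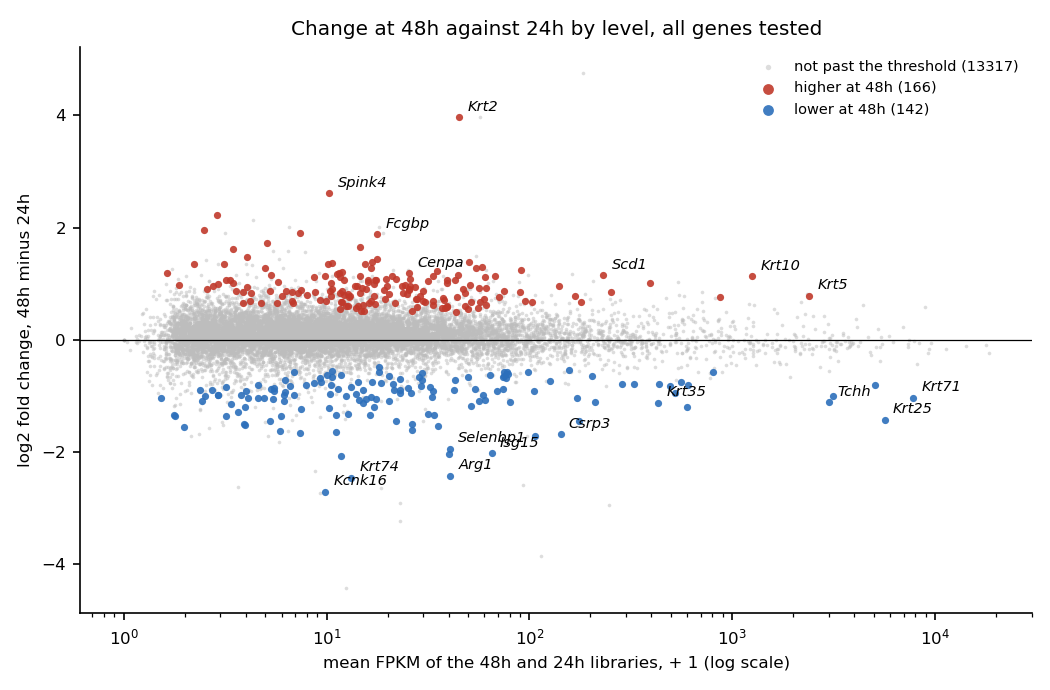
Change at 48h against 24h (y axis, log2 fold change on the log2(FPKM + 1) scale) for each of the 13625 genes tested, against the mean FPKM + 1 of the 48h and 24h libraries (x axis, log scale). Red points are the 166 genes higher at 48h and blue points the 142 lower; calls reach from highly expressed hair and skin keratins such as Krt25, Krt71 and Krt5 down to genes of a few FPKM, and some grey points show large differences that did not pass.

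**Figure D3:**
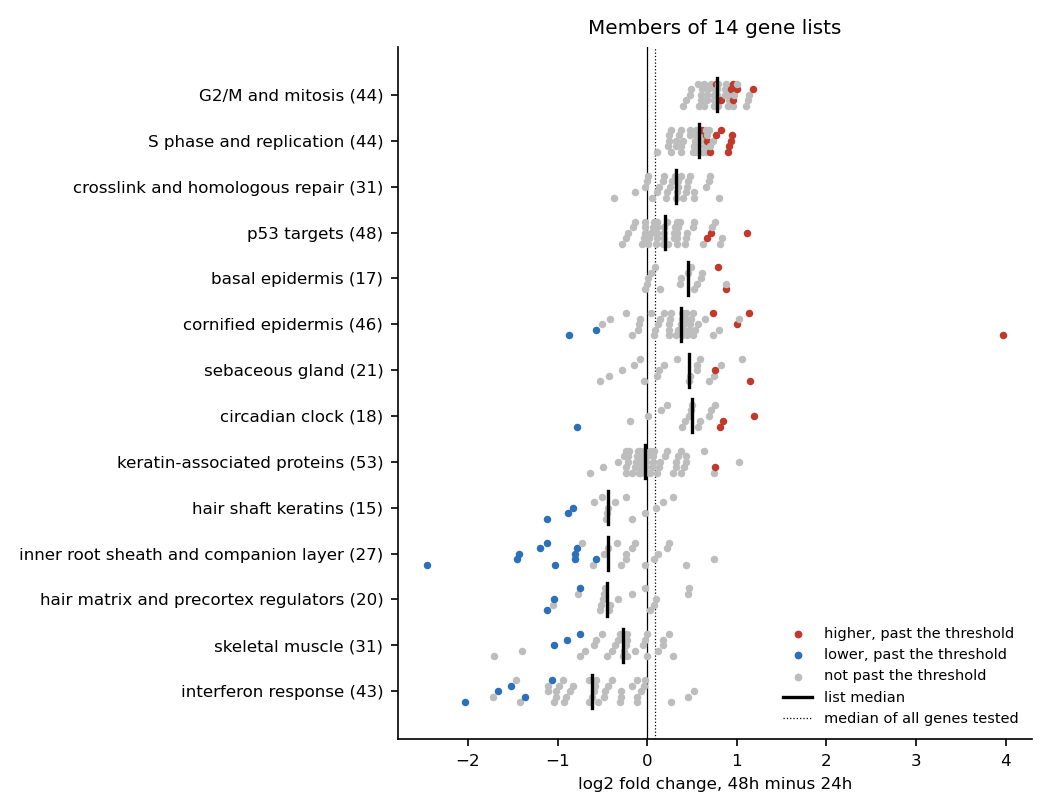
Log2 fold change of 48h against 24h (x axis) for the members of 14 gene lists (rows, with the number tested), each point 1 gene; the thick bar is the list's median and the dotted line the median of all genes tested, 0.086. All 44 G2/M genes and all 44 S phase genes lie to the right of 0, and 40 of 43 interferon response genes and 21 of 27 inner root sheath genes lie to the left.

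Genes of dividing cells had higher values at 48h. G2/M and mitosis genes encode the cyclins, kinases and spindle proteins that carry a cell through division. All 44 members had a positive log2 fold change, with a median of 0.78 against 0.086 over all genes. 7 of the 44 passed the threshold, all higher, against 1.22% of all genes tested. In all 44 both 48h libraries lay above both 24h libraries, as they did in 37.6% of all genes tested. The median was 0.696 with median-of-ratios scaling and ranged from 0.47 to 0.95 over 20 other settings. The 7 calls became 0 when either 48h library was left out and 2 or 1 when 24h library 2 or 3 was left out, 3 with either median-of-ratios scaling or quantile normalization and 2 with no filter on low values.

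The promoters of Cenpa and Cdca8 are printed because both genes rose and both carry repeats of the CCAAT box, the site of the NF-Y factor for which many mitotic promoters are known. The sequences are RefSeq's 250 bases before the transcription start (GRCm38.p6), read 5′ to 3′ on the gene's strand, and capitals mark CCAAT, here each time on the opposite strand and so written ATTGG. The Cenpa window is chr5:30666636-30666885 on the plus strand and the Cdca8 window chr4:124936918-124937167 on the minus strand. GENCODE places the start of both genes elsewhere, so that each window overlaps the gene as GENCODE draws it.
Cenpa: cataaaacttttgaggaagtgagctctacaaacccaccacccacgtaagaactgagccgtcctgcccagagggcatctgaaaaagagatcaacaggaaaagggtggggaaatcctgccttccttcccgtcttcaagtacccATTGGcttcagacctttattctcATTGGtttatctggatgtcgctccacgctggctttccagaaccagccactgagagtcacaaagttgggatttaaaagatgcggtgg
Cdca8: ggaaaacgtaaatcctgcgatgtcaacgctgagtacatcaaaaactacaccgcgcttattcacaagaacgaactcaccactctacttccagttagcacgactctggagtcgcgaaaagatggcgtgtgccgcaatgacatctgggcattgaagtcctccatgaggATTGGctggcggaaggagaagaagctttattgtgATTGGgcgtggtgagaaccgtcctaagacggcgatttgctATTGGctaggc
The boxes begin 109 and 86 bases before the start in Cenpa and 85, 51 and 11 bases before it in Cdca8. With each promoter counted once, CCAAT on either strand was in 28 of 35 G2/M promoters found in the table (80%) and in 21 of 35 S phase promoters (60%), against 34.5% of all 27025 promoters. TTTGAA, the letters of the cell cycle gene homology region, was in neither of the 2 windows printed here, and in 11 of the 35 G2/M promoters (31.4%), against 16.3% of all. Among the called G2/M genes it was in 0 of 5 promoters. Its share was 14.3% in the S phase list, 25% in both the inner root sheath and interferon lists and 88.9% in hair shaft keratins (8 of 9). A match describes the letters of the window and not the binding of a factor.

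Cenpa, the histone H3 variant that marks centromeres, had 35.9 and 32.1 FPKM at 48h, against 18.7 and 11.02 FPKM at 24h (adjusted p = 0.0479 for a log2 fold change of 1.18, SE 0.26). Both 48h libraries lay above both 24h libraries, and 24h library 3 was the lowest. Other called members form the chromosomal passenger complex, which corrects and completes chromosome segregation. Its scaffold Incenp had 17.03 and 17.6 FPKM at 48h, against 8.58 and 8.29 FPKM at 24h (adjusted p = 0.0125 for a log2 fold change of 0.96, SE 0.14). Its borealin subunit Cdca8 had 20.8 and 22.9 FPKM at 48h, against 11.7 and 9.31 FPKM at 24h (adjusted p = 0.015 for a log2 fold change of 0.997, SE 0.15). Its kinase Aurkb had 19.4 and 15.7 FPKM at 48h, against 10.6 and 6.78 FPKM at 24h (adjusted p = 0.0424 for a log2 fold change of 0.96, SE 0.201). In all 3 the 48h libraries lay above both 24h libraries. The remaining calls were Cdca3, which helps degrade the mitotic inhibitor Wee1 (log2 fold change 0.93, adjusted p = 0.0235), Cdc25b, a phosphatase that switches on CDK1 (log2 fold change 0.82, adjusted p = 0.0471), and Prc1, a spindle midzone protein (log2 fold change 0.77, adjusted p = 0.0471). Mki67, the proliferation marker Ki-67, had 13.1 and 13.7 FPKM at 48h, against 8.58 and 6.205 FPKM at 24h (adjusted p = 0.0801 for a log2 fold change of 0.79, SE 0.21). Its groups did not overlap, but it did not pass, nor did Ccnb1, Plk1, Aurka, Cdc20 or Top2a, whose log2 fold changes were between 0.87 and 1.14.

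Replication genes moved in the same direction. All 44 S phase members had a positive log2 fold change (median 0.57), as did 8674 of the 13625 genes tested. Of the 44, 10 passed the threshold, all higher, against 1.22% of all genes tested. In 42 members the 48h libraries lay above the 24h libraries, against 37.6% of all genes tested. The 10 calls became 0 when either 48h library was left out and 0 or 4 when 24h library 2 or 3 was left out, 4 with median-of-ratios scaling and 2 with no filter. Uhrf1, which carries DNA methylation through replication, had 30.1 and 29.7 FPKM at 48h, against 13.5 and 16.6 FPKM at 24h (adjusted p = 0.0214 for a log2 fold change of 0.95, SE 0.16). The 48h libraries were nearly equal and above every earlier library. Lig1, the ligase that joins Okazaki fragments, had 20.6 and 16.6 FPKM at 48h, against 8.62 and 9.86 FPKM at 24h (adjusted p = 0.0176 for a log2 fold change of 0.93, SE 0.15). Tk1, thymidine kinase, had 77.1 and 80.5 FPKM at 48h, against 37.7 and 45.1 FPKM at 24h (adjusted p = 0.038 for a log2 fold change of 0.92, SE 0.18). Cdt1, which loads the MCM helicase at origins, had 12.6 and 13.1 FPKM at 48h, against 5.71 and 7.24 FPKM at 24h (adjusted p = 0.0258 for a log2 fold change of 0.897, SE 0.16). Groups stood apart in each of these genes. The other 6 calls were Mcm5 of the MCM helicase, Chaf1b of the chromatin assembly factor, the polymerase subunit Pold2, the origin factor Cdc45, the methyltransferase Dnmt1 and the clamp loader subunit Rfc2, with log2 fold changes from 0.61 to 0.82.

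The medians of both lists were below 0h at 24h and above it at 48h, and the comparisons share the 24h or 48h libraries. The median log2 fold change of G2/M genes was -0.703 for 24h against 0h and 0.12 for 48h against 0h. That of S phase genes was -0.26 for 24h against 0h and 0.31 for 48h against 0h. Cdca8, a G2/M gene, had 28.5 and 23.8 FPKM at 0h, 12.5 and 12.5 at 6h and 10.6 and 8.601 at 12h. It had 11.7 and 9.31 FPKM at 24h and 20.8 and 22.9 at 48h. Cdca8 thus fell early, stayed low from 6h to 24h and at 48h was still below both 0h libraries. The S phase list did not share the fall by 6h. It summed to 840 to 841 FPKM at 0h, 814 to 956 at 6h and 595 to 744 at 12h. Dividing cells of skin sit both in the follicle matrix and in the basal epidermis. The 17 basal epidermis markers summed to 9727 to 10498 FPKM at 48h and 5765 to 8326 FPKM at 24h, and their part in the division genes was not tested.

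The damage lists held 3 calls, all of p53 targets and all higher, in a step that called 2.26% of all genes. Of 31 genes of crosslink and homologous repair, the pathways that remove cyclophosphamide's crosslinks, 0 passed (limma, with a median log2 fold change of 0.32). Of the 31, 27 were positive, as were 8674 of the 13625 genes tested. In 19 the 48h libraries lay above both 24h libraries, as in 37.6% of all genes tested. Among them Eme1, a nuclease subunit, had 4.51 and 5.79 FPKM at 48h, against 1.93 and 3.23 FPKM at 24h (adjusted p = 0.074 for a log2 fold change of 0.797, SE 0.205). Of 48 p53 targets 3 were higher and 0 lower, with a median of 0.204. Ckap2, a spindle protein, had 14.5 and 15.1 FPKM at 48h, against 8.097 and 4.84 FPKM at 24h (adjusted p = 0.0227 for a log2 fold change of 1.11, SE 0.19). Gtse1, a microtubule protein that also restrains p53, had 10.4 and 10.6 FPKM at 48h, against 6.03 and 6.05 FPKM at 24h (adjusted p = 0.0339 for a log2 fold change of 0.71, SE 0.14). Dcxr, a carbonyl reductase, had 115 and 139 FPKM at 48h, against 79.02 and 78.4 FPKM at 24h (adjusted p = 0.0231 for a log2 fold change of 0.67, SE 0.12). Ckap2 and Gtse1 are best known from the spindle and microtubules of dividing cells. The 3 calls became 1 or 0 when 48h library 2 or 3 was left out and 1 when either 24h library was left out. Cdkn1a, which encodes the p21 inhibitor of the cell cycle, had 250.1 and 233 FPKM at 48h, against 258 and 238 FPKM at 24h (adjusted p = 0.894 for a log2 fold change of -0.04, SE 0.12). Mdm2, the ubiquitin ligase that limits p53, had 20.2 and 23.7 FPKM at 48h, against 20.4 and 20.3 FPKM at 24h (adjusted p = 0.713 for a log2 fold change of 0.099, SE 0.12). The groups overlapped in both genes, and the sign of both small differences turned with single libraries left out, to 0.018 for Cdkn1a without 24h library 2 and to -0.0089 for Mdm2 without 48h library 3. All 4 values of Cdkn1a lay above its 0h values of 191 and 189.8 FPKM. None of 35 apoptosis genes passed (0 by limma, median 0.19), and the largest difference was that of Pmaip1, which encodes the p53-induced BH3 protein Noxa, with 8.97 and 11.1 FPKM at 48h, against 4.88 and 5.66 FPKM at 24h (adjusted p = 0.0915 for a log2 fold change of 0.81, SE 0.22).

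Keratins and hardening enzymes of the inner root sheath were lower at 48h, and with its companion layer the sheath had the largest share of calls of the 45 lists. Of 27 members 10 fell and 0 rose, with a median log2 fold change of -0.43, where 1.04% of all genes tested were called lower. In 18 members both 48h libraries lay below both 24h libraries, as in 16.7% of all genes tested. The 10 calls became 5 or 2 when 48h library 2 or 3 was left out and 2 or 7 when 24h library 2 or 3 was left out, and 5 with no filter. With median-of-ratios scaling there were 10, and with quantile normalization also 10.

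The promoters of Krt25 and Krt73 are shown because both keratins fell and both hold a TATA box at the same place before the RefSeq start. The bases are RefSeq's 250 before the start (GRCm38.p6), 5′ to 3′ on the gene's strand, with TATAAA in capitals. The window of Krt25 is chr11:99322952-99323201 on the minus strand and that of Krt73 chr15:101802361-101802610 on the minus strand.
Krt25: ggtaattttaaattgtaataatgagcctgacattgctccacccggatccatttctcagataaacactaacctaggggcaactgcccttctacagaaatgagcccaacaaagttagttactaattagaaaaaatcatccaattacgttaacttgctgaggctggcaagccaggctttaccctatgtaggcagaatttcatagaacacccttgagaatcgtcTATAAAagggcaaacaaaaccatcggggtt
Krt73: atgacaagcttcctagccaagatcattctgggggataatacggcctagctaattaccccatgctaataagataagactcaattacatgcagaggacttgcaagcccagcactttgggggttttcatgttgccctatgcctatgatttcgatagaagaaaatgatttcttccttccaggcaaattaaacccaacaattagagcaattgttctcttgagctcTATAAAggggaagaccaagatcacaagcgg
In each, TATAAA begins 30 bases before the RefSeq start. GENCODE has the same start for Krt25, but for Krt73 it starts the gene at chr15:101802346, downstream of the RefSeq start. Searched on both strands, with each promoter counted once, TATAAA was in 10 of 20 promoters of this list found in the table (50%), against 13% of all 27025 promoters. It was in 7.56% of the promoters of genes tested. Among hair shaft keratins it was in 6 of 9 promoters (66.7%), so it was not particular to the sheath list.

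Krt74, in humans a keratin of the Huxley layer of the sheath, had 3.87 and 2.37 FPKM at 48h, against 22.6 and 20.1 FPKM at 24h (adjusted p = 0.000529 for a log2 fold change of -2.46, SE 0.18). It lies at chr15:101754259-101763504 on the minus strand (GRCm38), where GENCODE types the mouse locus as a transcribed unitary pseudogene. It was the gene with the smallest adjusted p of the list, and both 48h libraries lay below every earlier library, of which 24h library 3 was the lowest. Krt25, a keratin of all 3 sheath layers and among the most abundant transcripts of the skin, had 3479 and 2679.6 FPKM at 48h, against 8611 and 7833 FPKM at 24h (adjusted p = 0.00649 for a log2 fold change of -1.43, SE 0.16). Krt73, a keratin of the sheath cuticle, had 413 and 317 FPKM at 48h, against 904 and 760.0 FPKM at 24h (adjusted p = 0.0089 for a log2 fold change of -1.195, SE 0.16). Padi3, which converts arginine of trichohyalin to citrulline, had 115 and 74.4 FPKM at 48h, against 271 and 241 FPKM at 24h (adjusted p = 0.00793 for a log2 fold change of -1.46, SE 0.18). Its substrate Tchh, trichohyalin, which fills the sheath and medulla, had 1986 and 1806 FPKM at 48h, against 4307 and 3913 FPKM at 24h (adjusted p = 0.00793 for a log2 fold change of -1.12, SE 0.14). In each of these genes both 48h libraries lay below both 24h libraries.

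The other calls were the sheath keratins Krt71, Krt27 and Krt28, Crnn, which encodes cornulin, and Tgm1, a transglutaminase that crosslinks hardened envelopes, with log2 fold changes from -1.03 to -0.57. Sheath keratins Krt72 and Krt26 did not pass (log2 fold change -0.5996, adjusted p = 0.0638, and log2 fold change -0.34, adjusted p = 0.182). Krt75 of the companion layer had 389 and 306 FPKM at 48h, against 509.8 and 459 FPKM at 24h (adjusted p = 0.111 for a log2 fold change of -0.49, SE 0.15). Krt6a had 493 and 533 FPKM at 48h, against 339 and 569 FPKM at 24h (adjusted p = 0.602 for a log2 fold change of 0.22, SE 0.203), and Krt6b, a close copy whose reads are hard to separate from it, had 11.4 and 15.7 FPKM at 48h, against 1.11 and 52.5 FPKM at 24h (adjusted p = 0.874 for a log2 fold change of 0.44, SE 1.11). In Krt6a and Krt6b the 24h libraries were so far apart that the 48h libraries fell between them. Against 0h, the list's median was 0.42 at 24h and -0.12 at 48h. Krt25 stood at 6161 and 6085 FPKM at 0h, 7451 and 6892 at 6h, 8143 and 7544 at 12h, 8611 and 7833 at 24h and 3479 and 2679.6 at 48h, so that its mean climbed until 24h and both 48h libraries were below 0h.

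**Figure D4:**
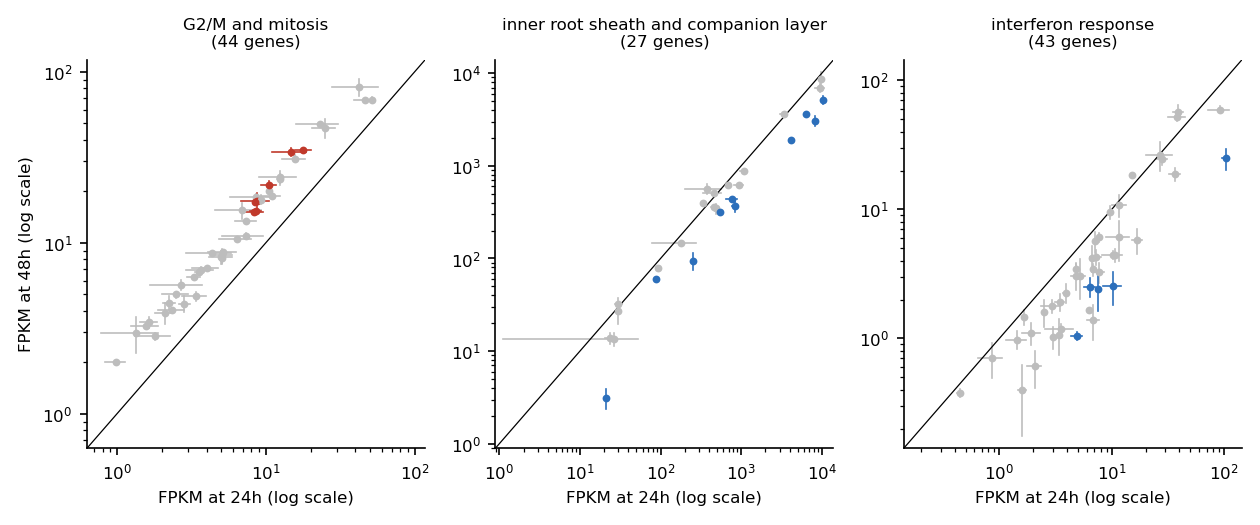
FPKM at 48h (y axis, log scale) against FPKM at 24h (x axis, log scale) for the genes of 3 lists; points are means of 2 libraries, the lines through them join the 2 libraries of a time, the diagonal is equality, red is higher and blue lower past the threshold. All 44 G2/M genes lie above the diagonal, while 10 inner root sheath genes and 5 interferon response genes lie below it in blue.

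Hair shaft keratins were called only downwards, in a step where 1.04% of all genes tested were called lower. The proteins that crosslink these keratins showed 1 call. Of 15 hair shaft keratins 3 fell and 0 rose (median -0.44), and the 3 calls became 1 or 0 when 48h library 2 or 3 was left out and 0 or 3 when 24h library 2 or 3 was left out. Krt35 and Krt85 are known to come on early, in the upper matrix and lower shaft. Krt35 had 282 and 258 FPKM at 48h, against 674 and 515 FPKM at 24h (adjusted p = 0.00819 for a log2 fold change of -1.12, SE 0.14). Krt85 had 359 and 347 FPKM at 48h, against 672 and 589.8 FPKM at 24h (adjusted p = 0.0231 for a log2 fold change of -0.83, SE 0.14). Krt36 had 51.4 and 50.6 FPKM at 48h, against 99.8 and 89.9 FPKM at 24h (adjusted p = 0.0131 for a log2 fold change of -0.88, SE 0.13). The times did not overlap in these 3 genes. Of the other 12, 9 were negative and 3 positive. Krt34, of the upper cortex, had 2117 and 2058 FPKM at 48h, against 2129.6 and 1779.7 FPKM at 24h (adjusted p = 0.775 for a log2 fold change of 0.1005, SE 0.15), and Krt86 had 2121 and 1845 FPKM at 48h, against 2180.3 and 1852 FPKM at 24h (adjusted p = 0.962 for a log2 fold change of -0.023, SE 0.17). Of 53 keratin-associated proteins, which cross-link the keratins late in the shaft, 1 rose and 0 fell, with a median of -0.02 that became 0.056 with quantile normalization. The exception was Krtap4-7, with 1175 and 1011 FPKM at 48h, against 697 and 596 FPKM at 24h (adjusted p = 0.0276 for a log2 fold change of 0.76, SE 0.14). It belongs to a family of near-identical copies, so its value is uncertain. The other 7 Krtap4 genes tested were also positive, between 0.29 and 0.75 on the log2 scale, and none passed.

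Of 20 regulators and early genes of the hair matrix and precortex 3 fell and 0 rose, and 15 were negative (median -0.45). Of all 13625 genes tested 1.04% were called lower and 4946 were negative. The 3 falls became 1 or 0 when 48h library 2 or 3 was left out and 0 or 3 when 24h library 2 or 3 was left out, and 5 with either median-of-ratios scaling or quantile normalization. Beside Tchh these were Wnt10b and Lef1, described with the Wnt pathway. The keratin regulator Hoxc13 had 46.2 and 37.98 FPKM at 48h, against 62.9 and 50.96 FPKM at 24h (adjusted p = 0.21 for a log2 fold change of -0.43, SE 0.17), and Foxn1, the factor lost in nude mice, had 12.95 and 11.9 FPKM at 48h, against 19.1 and 17.2 FPKM at 24h (adjusted p = 0.068 for a log2 fold change of -0.51, SE 0.13). Msx2, a homeobox factor of the matrix, had 44.6 and 28.5 FPKM at 48h, against 75.003 and 50.4 FPKM at 24h (adjusted p = 0.113 for a log2 fold change of -0.77, SE 0.23). All 3 were lower in each 48h library and did not pass. Shh, the hedgehog ligand of the matrix, had 2.62 and 1.29 FPKM at 48h, against 1.75 and 1.63 FPKM at 24h (adjusted p = 0.864 for a log2 fold change of 0.098, SE 0.23), with overlapping groups, and all 4 values were below those of 0h, 7.08 and 5.35 FPKM. None of 15 Hedgehog pathway genes passed (0 by limma), and the transducer Gli1 had 14.8 and 12.4 FPKM at 48h, against 16.8 and 14.8 FPKM at 24h (adjusted p = 0.67 for a log2 fold change of -0.202, SE 0.22).

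The Wnt pathway drives the matrix through ligands, Frizzled and LRP receptors, beta-catenin and the LEF/TCF factors. Of 46 members 2 rose and 4 fell, against 1.22% and 1.04% of all genes tested. The median was 0.024, but -0.072 with median-of-ratios scaling and -0.08 with quantile normalization. The 2 rises became 0 when any 1 of the 4 libraries of 48h and 24h was left out. The 4 falls became 2 or 0 when 48h library 2 or 3 was left out and 0 or 5 when 24h library 2 or 3 was left out. Among ligands, Wnt10b of the matrix had 2.302 and 2.08 FPKM at 48h, against 6.93 and 4.44 FPKM at 24h (adjusted p = 0.0479 for a log2 fold change of -1.04, SE 0.23). Wnt11 had 12.4 and 8.52 FPKM at 48h, against 26.1 and 19.2 FPKM at 24h (adjusted p = 0.0269 for a log2 fold change of -1.05, SE 0.19). Wnt7b, an epidermal ligand, had 8.89 and 6.44 FPKM at 48h, against 3.82 and 3.72 FPKM at 24h (adjusted p = 0.0377 for a log2 fold change of 0.85, SE 0.17). Among the ligands tested 2 thus fell and 1 rose. Wnt16 had 3.99 and 5.48 FPKM at 48h, against 0.905 and 1.597 FPKM at 24h (adjusted p = 0.0527 for a log2 fold change of 1.35, SE 0.31), and Wnt5a had 8.59 and 5.27 FPKM at 48h, against 14.1 and 12.5 FPKM at 24h (adjusted p = 0.0587 for a log2 fold change of -0.88, SE 0.21). The receptors Fzd1, Fzd6, Fzd10, Lrp5 and Lrp6 had log2 fold changes between -0.0095 and 0.24, and beta-catenin itself, Ctnnb1, had 205 and 214 FPKM at 48h, against 224 and 221 FPKM at 24h (adjusted p = 0.738 for a log2 fold change of -0.086, SE 0.11). Lgr6, an R-spondin receptor of stem cells above the bulge, had 4.02 and 4.63 FPKM at 48h, against 1.78 and 1.77 FPKM at 24h (adjusted p = 0.0479 for a log2 fold change of 0.94, SE 0.21). Among transducers and feedback genes, Lef1 had 6.47 and 5.48 FPKM at 48h, against 12.1 and 9.398 FPKM at 24h (adjusted p = 0.0422 for a log2 fold change of -0.75, SE 0.16), and at 0h it had stood at 23.5 and 22.2 FPKM. Nkd2, a feedback inhibitor that binds Dishevelled, had 12.04 and 9.72 FPKM at 48h, against 33.9 and 28.6 FPKM at 24h (adjusted p = 0.00793 for a log2 fold change of -1.44, SE 0.18). Axin2, the usual readout of the pathway, had 10.5 and 10.2 FPKM at 48h, against 10.1 and 7.95 FPKM at 24h (adjusted p = 0.523 for a log2 fold change of 0.19, SE 0.15). Lef1 and Nkd2 fell while Axin2 did not pass.

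The EGF receptor ligands Areg and Tgfa fell at 48h, as did Bambi and Sgk3, while Igfbp5 rose. Of 39 BMP, TGF-beta and Notch genes only Bambi, a decoy receptor induced by BMP and Wnt signals, passed, with 11.4 and 7.48 FPKM at 48h, against 26.3 and 19.2 FPKM at 24h (adjusted p = 0.0183 for a log2 fold change of -1.19, SE 0.19). The 1 call became 1 or 0 when 48h library 2 or 3 was left out and 0 or 1 when 24h library 2 or 3 was left out. Of 24 growth-phase growth factors and receptors 3 fell and 1 rose, against 1.04% and 1.22% of all genes tested. The EGF receptor ligand Areg had 7.15 and 3.74 FPKM at 48h, against 13.9 and 15.6 FPKM at 24h (adjusted p = 0.0203 for a log2 fold change of -1.34, SE 0.23). The related ligand Tgfa had 10.3 and 8.15 FPKM at 48h, against 19.01 and 21.3 FPKM at 24h (adjusted p = 0.0135 for a log2 fold change of -1.06, SE 0.16). Sgk3, a kinase without which mice have defective hair, had 6.62 and 5.38 FPKM at 48h, against 13.2 and 12.3 FPKM at 24h (adjusted p = 0.00971 for a log2 fold change of -0.98, SE 0.13). All 3 were lower in each 48h library. Igfbp5, a binding protein of insulin-like growth factors, had 30.2 and 21.4 FPKM at 48h, against 12.6 and 10.4 FPKM at 24h (adjusted p = 0.0151 for a log2 fold change of 1.09, SE 0.17). The 3 falls became 3 or 0 when 48h library 2 or 3 was left out and 0 or 1 when 24h library 2 or 3 was left out. The 1 rise became 0 or 1 when 48h library 2 or 3 was left out and 0 when either 24h library was left out. The receptor Egfr itself had 14.05 and 13.8 FPKM at 48h, against 13.7 and 14.3 FPKM at 24h (adjusted p = 0.99 for a log2 fold change of -0.007, SE 0.19). Of 23 factors of follicle regression (catagen), 1 passed: Rxra, a retinoid receptor, had 47.6 and 42.4 FPKM at 48h, against 28.5 and 31.7 FPKM at 24h (adjusted p = 0.0434 for a log2 fold change of 0.57, SE 0.12), and it was lost with any 1 of the 48h or 24h libraries left out. Fgf5, the factor known to end anagen, had 1.64 and 0.842 FPKM at 48h, against 3.31 and 3.27 FPKM at 24h (adjusted p = 0.0566 for a log2 fold change of -0.96, SE 0.22), which missed the threshold. In the dermal papilla list 1 of 25 passed. Crabp1, a retinoic acid binding protein, had 70.6 and 82.6 FPKM at 48h, against 31.1 and 30.8 FPKM at 24h (adjusted p = 0.00793 for a log2 fold change of 1.28, SE 0.16), and it was lost without 48h library 3 or 24h library 2. Of 22 bulge and stem cell genes the only call was Lgr6, and Krt15 had 791 and 1036 FPKM at 48h, against 500.2 and 500.2 FPKM at 24h (adjusted p = 0.0992 for a log2 fold change of 0.85, SE 0.24).

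**Figure D5:**
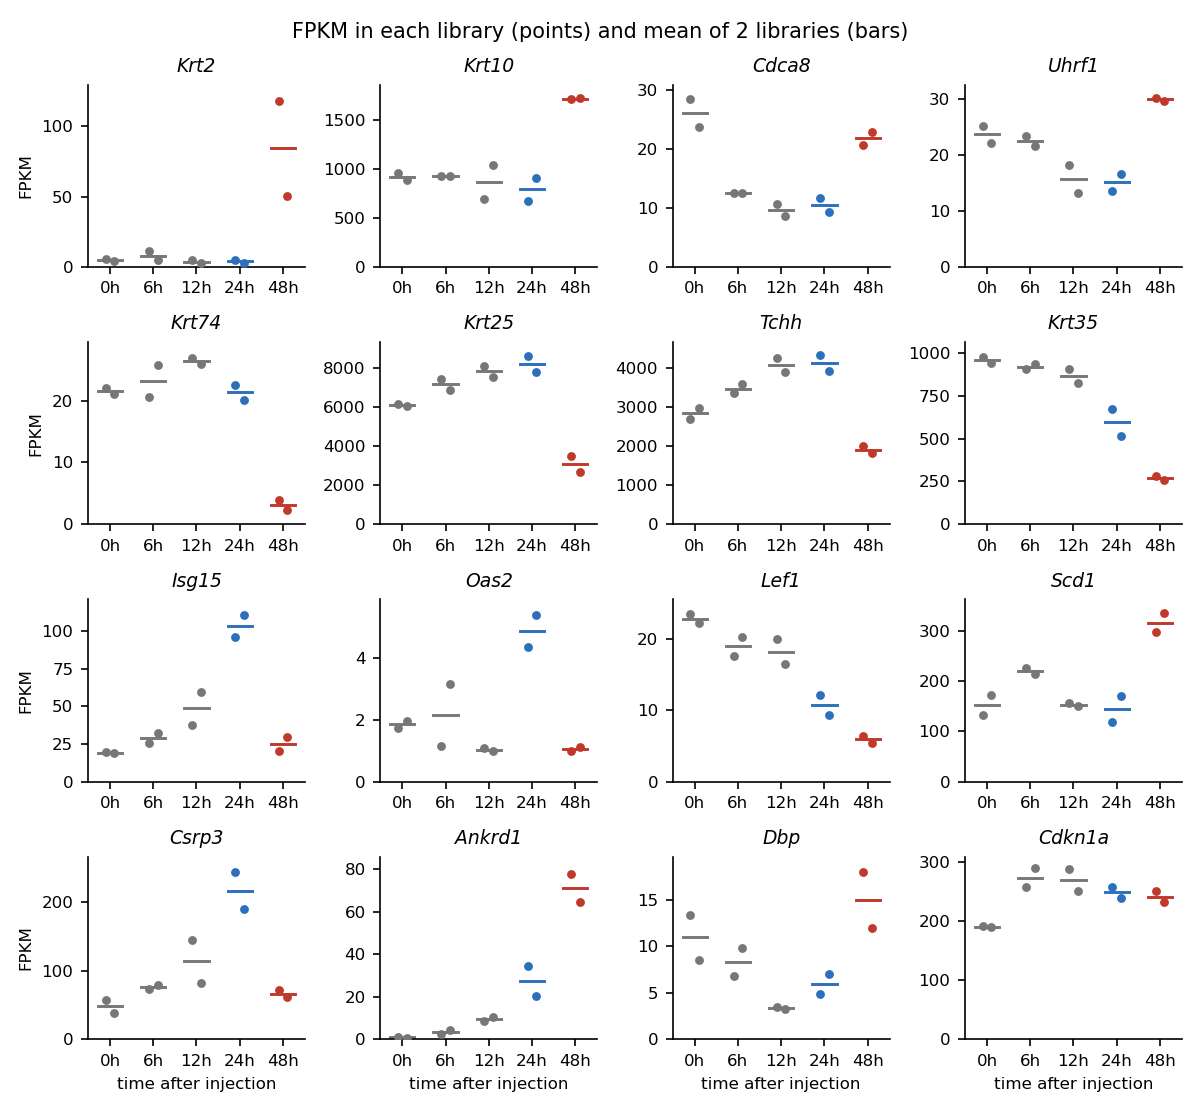
FPKM (y axes, linear, from 0) of 16 genes in each of the 10 libraries (points) and the mean of the 2 libraries (bars) by time after injection (x axes), with 48h in red and 24h in blue. Krt2, Krt10 and Uhrf1 are highest at 48h, Krt74, Krt25 and Tchh lowest, Isg15 and Oas2 peak at 24h, and Cdkn1a differs little between 24h and 48h.

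Several keratins of the upper epidermis rose at 48h. Krt2, the keratin of the uppermost living layers of the epidermis, had the largest rise of the step, with 118 and 50.8 FPKM at 48h, against 5.18 and 3.05 FPKM at 24h (adjusted p = 0.00645 for a log2 fold change of 3.97, SE 0.43). It lies at chr15:101810689-101818169 on the minus strand (GRCm38). Both 48h libraries lay above each of the 8 others, of which the lowest was 2.59 FPKM in 12h library 3 and the highest 10.99 FPKM in 6h library 2, while the 48h libraries differed widely from each other. Of 46 cornified epidermis genes 4 rose and 2 fell (median 0.38), against 1.22% and 1.04% of all genes tested. The 4 rises became 1 when either 48h library was left out and 1 or 5 when 24h library 2 or 3 was left out, and the 2 falls became 0 when either 48h library was left out and 0 or 1 when 24h library 2 or 3 was left out. With no filter 1 rise and 1 fall were left. Krt10, the main keratin of the suprabasal layers, had 1709 and 1719 FPKM at 48h, against 668 and 909 FPKM at 24h (adjusted p = 0.0231 for a log2 fold change of 1.14, SE 0.198). Krt77, another suprabasal keratin, had 599 and 449 FPKM at 48h, against 235 and 283 FPKM at 24h (adjusted p = 0.0183 for a log2 fold change of 1.004, SE 0.16). Alox12b, a lipoxygenase that builds the lipid barrier, had 23.7 and 22.5 FPKM at 48h, against 12.2 and 15.003 FPKM at 24h (adjusted p = 0.0442 for a log2 fold change of 0.73, SE 0.16). These rises sat beside falls of Dsc1, a desmosomal cadherin of upper epidermis and sheath, with 39.8 and 34.4 FPKM at 48h, against 68.9 and 68.1 FPKM at 24h (adjusted p = 0.0162 for a log2 fold change of -0.87, SE 0.14), and of Tgm1, named above with the sheath. Loricrin and involucrin, proteins of the cornified envelope, were not called. Loricrin, Lor, had 2379 and 2364 FPKM at 48h, against 1952 and 1634 FPKM at 24h (adjusted p = 0.408 for a log2 fold change of 0.41, SE 0.25), and involucrin, Ivl, had 96.1 and 101 FPKM at 48h, against 119 and 112 FPKM at 24h (adjusted p = 0.383 for a log2 fold change of -0.23, SE 0.13).

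In the basal layer 2 of 17 genes rose (median 0.45), against 1.22% of all genes tested. Krt5 had 2894 and 3132 FPKM at 48h, against 1487 and 2045 FPKM at 24h (adjusted p = 0.0468 for a log2 fold change of 0.79, SE 0.17). Col17a1, a collagen of hemidesmosomes, had 97.4 and 94.5 FPKM at 48h, against 44.9 and 59.7 FPKM at 24h (adjusted p = 0.0405 for a log2 fold change of 0.88, SE 0.18). Krt14, the partner of Krt5, had 5026 and 5581 FPKM at 48h, against 2649 and 4513 FPKM at 24h (adjusted p = 0.173 for a log2 fold change of 0.62, SE 0.22). In Krt5 and Krt14 alike, 24h library 3 was above 24h library 2, and the whole basal list summed to 9727 to 10498 FPKM at 48h and 5765 to 8326 FPKM at 24h. The cornified list summed to 25933 to 27881 FPKM at 48h and 19833 to 22586 FPKM at 24h. The 2 basal calls became 0 when either 48h library was left out and 0 or 3 when 24h library 2 or 3 was left out, and 0 with median-of-ratios scaling. Of 40 genes of stressed epidermis 1 fell, Areg, described above. Krt16, a keratin of wounded epidermis, had 139 and 152 FPKM at 48h, against 78.01 and 279 FPKM at 24h (adjusted p = 0.986 for a log2 fold change of -0.023, SE 0.43), a wide spread that covered the 48h libraries. S100a8, a subunit of the antimicrobial calprotectin, had 368 and 408 FPKM at 48h, against 384 and 218 FPKM at 24h (adjusted p = 0.455 for a log2 fold change of 0.42, SE 0.28), with overlap of the groups.

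Interferon response genes had lower values at 48h. Type I interferon switches on these antiviral effectors through the ISGF3 complex, which binds the interferon-stimulated response element. Of 43 members 5 fell and 0 rose, where 1.04% of all genes tested were called lower. The median log2 fold change was -0.61, and 40 members were negative, as were 4946 of the 13625 genes tested. In 34 members the 48h libraries lay below both 24h libraries, against 16.7% of all genes tested. The 5 calls became 1 or 2 when 48h library 2 or 3 was left out and 1 when either 24h library was left out, 1 with no filter, 7 with median-of-ratios scaling and 8 with quantile normalization. The median ranged from -0.803 to -0.304 over the settings.

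Isg15 had the largest fall of the list, and its promoter shows the element in tandem. The window is chr4:156200819-156201068 on the minus strand, RefSeq's 250 bases before the start (GRCm38.p6), 5′ to 3′ on the gene's strand. Capitals mark 3 overlapping matches to GAAA repeated after a gap of 2 bases (GAAA, NN, GAAA), which begin 78, 72 and 66 bases before the start.
Isg15: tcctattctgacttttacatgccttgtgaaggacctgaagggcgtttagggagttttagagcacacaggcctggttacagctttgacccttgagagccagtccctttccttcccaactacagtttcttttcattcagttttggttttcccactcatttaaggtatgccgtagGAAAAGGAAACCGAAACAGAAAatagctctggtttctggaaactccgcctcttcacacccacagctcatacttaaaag
Searched on both strands, this pattern was in 15 of 32 promoters of the list found in the table (46.9%), against 3.04% of all 27025 promoters. Of the called members of the list it was in 2 of 3 promoters found, and the window of Oasl2 held 0 matches.

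Isg15, the ubiquitin-like protein of the interferon response, had 20.3 and 29.5 FPKM at 48h, against 95.8 and 111 FPKM at 24h (adjusted p = 0.00649 for a log2 fold change of -2.03, SE 0.23). Over the series it had 19.5 and 18.8 FPKM at 0h, 25.98 and 32.4 at 6h, 37.4 and 59.8 at 12h, 95.8 and 111 at 24h and 20.3 and 29.5 at 48h. Its mean was higher at each time up to 24h, and both 48h libraries lay below both 12h libraries. Genes of the oligoadenylate synthetase family, which sense viral RNA, fell as well. Oasl2 had 1.82 and 3.296 FPKM at 48h, against 8.42 and 11.98 FPKM at 24h (adjusted p = 0.0269 for a log2 fold change of -1.67, SE 0.305). Oas2 had 0.978 and 1.12 FPKM at 48h, against 4.36 and 5.41 FPKM at 24h (adjusted p = 0.0235 for a log2 fold change of -1.52, SE 0.27). Usp18, the protease that removes Isg15 from its targets, had 1.64 and 3.18 FPKM at 48h, against 7.29 and 7.86 FPKM at 24h (adjusted p = 0.0183 for a log2 fold change of -1.37, SE 0.22). Gbp3, a guanylate-binding GTPase, had 2.09 and 2.96 FPKM at 48h, against 5.67 and 7.04 FPKM at 24h (adjusted p = 0.0377 for a log2 fold change of -1.07, SE 0.21). Each was lower in both 48h libraries. Ifit1 had 0.976 and 1.82 FPKM at 48h, against 5.98 and 7.72 FPKM at 24h (adjusted p = 0.106 for a log2 fold change of -1.72, SE 0.51), and Irf7, the factor that amplifies the response, had 16.5 and 21.1 FPKM at 48h, against 32.4 and 40.7 FPKM at 24h (adjusted p = 0.0597 for a log2 fold change of -0.92, SE 0.22), neither past the threshold. The immunoproteasome subunit Psmb9, also in the list, had 49.3 and 64.4 FPKM at 48h, against 35.04 and 43.1 FPKM at 24h (adjusted p = 0.181 for a log2 fold change of 0.52, SE 0.19). It was higher in each 48h library without passing. Of 17 antigen presentation genes, also interferon-inducible, 0 passed (limma), and the median was positive at 0.37, with H2-K1 at log2 fold change 0.68, adjusted p = 0.0566. Outside that list, the MHC class I gene H2-Q9 was called higher at 48h, with a log2 fold change of 1.14.

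Immune cell markers were measured beside these genes. The 33 macrophage and dendritic cell markers in the table summed to 756 to 837 FPKM at 48h and 868 to 1136 FPKM at 24h, and the 29 tested had a median log2 fold change of -0.17. Only Gpnmb, shared with melanocytes, passed, with 59.5 and 55.4 FPKM at 48h, against 98.97 and 87.8 FPKM at 24h (adjusted p = 0.0479 for a log2 fold change of -0.69, SE 0.15), and it too depended on each of the 4 libraries. The 25 lymphocyte genes in the table summed to 125 to 126 FPKM at 48h and 63.96 to 111 FPKM at 24h, with 1 of them at 0 in all 4 libraries, and 10 were tested. Cd3e, a chain of the T cell receptor complex, had 3.03 and 4.19 FPKM at 48h, against 1.52 and 1.02 FPKM at 24h (adjusted p = 0.0399 for a log2 fold change of 1.02, SE 0.21), and it was lost with any 1 of the 48h or 24h libraries left out. The 15 neutrophil genes in the table summed to 417 to 467 FPKM at 48h and 303 to 435 FPKM at 24h, and the 8 tested had 0 calls. The 14 mast cell genes in the table summed to 85.9 to 108 FPKM at 48h and 68.8 to 104 FPKM at 24h, and the 11 tested had 0 calls. The part of these cells in the values of interferon genes was not tested. None of 28 cytokines and chemokines passed (0 by limma), with Cxcl10, an interferon-induced chemokine, at log2 fold change -1.11, adjusted p = 0.094. Of 21 acute phase genes 1 fell: Retnla, a product of alternatively activated macrophages and fat, had 11.6 and 13.1 FPKM at 48h, against 26.9 and 50.2 FPKM at 24h (adjusted p = 0.0231 for a log2 fold change of -1.503, SE 0.26), and it was lost without 48h library 2, 48h library 3 or 24h library 3. Serpina3n had 96.8 and 130.3 FPKM at 48h, against 179 and 212 FPKM at 24h (adjusted p = 0.318 for a log2 fold change of -0.79, SE 0.398), and Lcn2 had 34.2 and 25.7 FPKM at 48h, against 32.7 and 59.1 FPKM at 24h (adjusted p = 0.673 for a log2 fold change of -0.56, SE 0.61). The spread between 24h libraries was wide in both Retnla and Lcn2.

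Back skin includes the thin panniculus muscle, and its genes moved in both directions. Of 31 skeletal muscle genes 3 fell and 0 rose (median -0.27), where 1.04% of all genes tested were called lower. The list summed to 9264 to 10291 FPKM at 48h and 11969 to 12472 FPKM at 24h, compared with 20965 to 23183 FPKM at 0h. Eno3, the muscle enolase, had 103 and 119 FPKM at 48h, against 251 and 211 FPKM at 24h (adjusted p = 0.0098 for a log2 fold change of -1.04, SE 0.14). Ldb3, a Z-disc protein, had 30.3 and 26.6 FPKM at 48h, against 61.7 and 46.7 FPKM at 24h (adjusted p = 0.0298 for a log2 fold change of -0.896, SE 0.17). Myl1, a myosin light chain, had 381 and 456 FPKM at 48h, against 727 and 682 FPKM at 24h (adjusted p = 0.0468 for a log2 fold change of -0.75, SE 0.16). The 48h libraries were lower in each. The 3 calls became 0 when either 48h library was left out and 0 or 2 when 24h library 2 or 3 was left out. Of 18 genes of muscle stress and regeneration 3 rose and 1 fell, against 1.22% and 1.04% of all genes tested. Csrp3, muscle LIM protein, had 71.5 and 61.3 FPKM at 48h, against 243 and 189.9 FPKM at 24h (adjusted p = 0.0164 for a log2 fold change of -1.68, SE 0.26). At 0h it had 57.7 and 37.5 FPKM, and both 24h libraries were its highest of the series. Ankrd1, a stretch-responsive repeat protein, had 77.9 and 64.6 FPKM at 48h, against 34.4 and 20.2 FPKM at 24h (adjusted p = 0.0326 for a log2 fold change of 1.39, SE 0.27), and at 0h it had 1.15 and 0.737 FPKM, with a higher mean at each later time. Myog, the myogenic factor of differentiating muscle cells, had 29.5 and 20.99 FPKM at 48h, against 11.1 and 13.7 FPKM at 24h (adjusted p = 0.0376 for a log2 fold change of 0.95, SE 0.19). Chrna1, a subunit of the acetylcholine receptor, had 7.599 and 4.46 FPKM at 48h, against 2.45 and 1.33 FPKM at 24h (adjusted p = 0.045 for a log2 fold change of 1.27, SE 0.27). Both Myog and Chrna1 were higher in each 48h library. The 3 rises became 0 when either 48h library was left out and 1 or 0 when 24h library 2 or 3 was left out, and 0 with median-of-ratios scaling.

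The adipocyte and sebaceous gland lists were called only upwards. Of 23 adipocyte genes 2 rose, and of 21 sebaceous gland genes 2 rose, where 1.22% of all genes tested were called higher. Scd1 is counted in both lists. The adipocyte list summed to 3104 to 4518 FPKM at 48h and 3509 to 5057 FPKM at 24h. The sebaceous list summed to 3184 to 3453 FPKM at 48h and 2824 to 3663 FPKM at 24h. In both lists the sums of the times overlapped. Scd1, the desaturase that makes oleate in sebaceous glands and fat, had 299 and 335 FPKM at 48h, against 119 and 169.9 FPKM at 24h (adjusted p = 0.0162 for a log2 fold change of 1.15, SE 0.18). Dgat2, which makes triglyceride, had 114 and 118 FPKM at 48h, against 69.2 and 74.2 FPKM at 24h (adjusted p = 0.0195 for a log2 fold change of 0.68, SE 0.11). Acsbg1, an acyl-CoA synthetase, had 84.3 and 91.7 FPKM at 48h, against 48.6 and 54.98 FPKM at 24h (adjusted p = 0.0206 for a log2 fold change of 0.75, SE 0.13). In these 3 genes the times did not overlap. Scd3, a desaturase of sebaceous glands, had 57.7 and 49.3 FPKM at 48h, against 28.9 and 21.7 FPKM at 24h (adjusted p = 0.055 for a log2 fold change of 1.06, SE 0.24). The adipocyte hormone Adipoq had 45.8 and 106 FPKM at 48h, against 46.9 and 80.9 FPKM at 24h (adjusted p = 0.862 for a log2 fold change of 0.18, SE 0.41), with libraries of each time far apart, and its sign turned without 48h library 3 or 24h library 2. Adipocyte calls became 0 when either 48h library was left out and 0 or 2 when 24h library 2 or 3 was left out. Sebaceous calls became 0 when either 48h library was left out and 0 or 4 when 24h library 2 or 3 was left out.

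Of the clock genes, output factors were among those higher at 48h, and the time of day of collection is not given. Of 18 clock genes 3 rose and 1 fell (median 0.496), against 1.22% and 1.04% of all genes tested. The 3 rises were 0 when either 48h library was left out and 0 or 1 when 24h library 2 or 3 was left out, and the 1 fall was 0 when either 48h library was left out and 0 or 1 when 24h library 2 or 3 was left out. Dbp had 18.01 and 12.02 FPKM at 48h, against 4.88 and 7.02 FPKM at 24h (adjusted p = 0.0468 for a log2 fold change of 1.196, SE 0.26), and Tef, of the same family of PAR bZIP output factors, had 30.7 and 30.7 FPKM at 48h, against 16.3 and 17.9 FPKM at 24h (adjusted p = 0.0131 for a log2 fold change of 0.81, SE 0.12). Nfil3, the repressor that opposes Dbp and Tef at their sites, had 13.3 and 12.03 FPKM at 48h, against 23.1 and 21.6 FPKM at 24h (adjusted p = 0.0183 for a log2 fold change of -0.78, SE 0.13). The times did not overlap in these 3 genes. The core gene Arntl, which encodes BMAL1, had 5.48 and 6.85 FPKM at 48h, against 7.42 and 6.92 FPKM at 24h (adjusted p = 0.539 for a log2 fold change of -0.196, SE 0.16), and the repressor Per2 had 1.45 and 2.13 FPKM at 48h, against 1.18 and 0.834 FPKM at 24h (adjusted p = 0.292 for a log2 fold change of 0.47, SE 0.22). Neither core gene passed.

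Lists of other skin cells and of stress responses held 0 to 2 calls each, where 2.26% of all genes were called. Of 23 melanocyte genes 1 fell, Gpnmb, given above, while Dct, a melanin synthesis enzyme, had 159 and 192 FPKM at 48h, against 161 and 136 FPKM at 24h (adjusted p = 0.429 for a log2 fold change of 0.24, SE 0.15). Of 31 fibroblast and matrix genes 2 fell. Mfap5, a microfibril protein, had 9.91 and 7.17 FPKM at 48h, against 22.3 and 17.3 FPKM at 24h (adjusted p = 0.0288 for a log2 fold change of -1.13, SE 0.21). Dpp4, a peptidase of upper dermal fibroblasts, had 5.04 and 4.52 FPKM at 48h, against 9.21 and 8.96 FPKM at 24h (adjusted p = 0.0445 for a log2 fold change of -0.805, SE 0.17). Col1a1 had 384 and 484 FPKM at 48h, against 233 and 369.7 FPKM at 24h (adjusted p = 0.332 for a log2 fold change of 0.55, SE 0.29), which did not pass although the times did not overlap. Of 23 endothelial and pericyte genes 1 rose: Cldn5, the tight junction claudin of vessels, had 36.2 and 61.03 FPKM at 48h, against 18.95 and 20.002 FPKM at 24h (adjusted p = 0.0339 for a log2 fold change of 1.23, SE 0.24). Of 10 red blood cell genes 1 fell: Bpgm, the enzyme that makes bisphosphoglycerate, had 25.02 and 19.7 FPKM at 48h, against 44.9 and 40.5 FPKM at 24h (adjusted p = 0.0131 for a log2 fold change of -0.91, SE 0.13), while the haemoglobin rows varied as given above. Of 26 NRF2 targets 1 fell, G6pdx, the first enzyme of the pentose phosphate pathway, with 61.8 and 60.6 FPKM at 48h, against 92.7 and 91.5 FPKM at 24h (adjusted p = 0.0442 for a log2 fold change of -0.58, SE 0.12). Of 28 genes of the unfolded protein response and ATF4 1 rose, Phgdh, the first enzyme of serine synthesis, with 57.9 and 58.2 FPKM at 48h, against 37.3 and 42.1 FPKM at 24h (adjusted p = 0.0404 for a log2 fold change of 0.54, SE 0.11). Mfap5 was lost without 48h library 2, 48h library 3 or 24h library 2, Cldn5 without 48h library 3 or either 24h library, and Bpgm without 48h library 3 or 24h library 2. Dpp4, G6pdx and Phgdh were lost with any 1 of the 48h or 24h libraries left out. No gene passed among 15 glucocorticoid-responsive, 22 immediate-early, 45 cytosolic ribosome, 31 proteasome, 25 matrix remodelling and 12 nerve genes (0 by limma in each).

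Over all 45 lists, 32 had at least 1 call. The list median kept its sign in all 20 other settings in 31 lists and turned in at least 1 in the other 14. Of the 166 genes higher at 48h 45 were in a list, as were 38 of the 142 lower.

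Among the 15 largest rises named by rule were several secreted proteins in none of the lists. Spink4, a Kazal-type protease inhibitor, had 16.8 and 16.2 FPKM at 48h, against 3.35 and 0.883 FPKM at 24h (adjusted p = 0.00793 for a log2 fold change of 2.61, SE 0.32). Cma2, a gene of the chymase family, had 13.97 and 7.44 FPKM at 48h, against 1.64 and 2.44 FPKM at 24h (adjusted p = 0.0183 for a log2 fold change of 1.9004, SE 0.31). Fcgbp, a mucin-like secreted protein that binds IgG, had 34.2 and 20.2 FPKM at 48h, against 6.01 and 6.76 FPKM at 24h (adjusted p = 0.00793 for a log2 fold change of 1.89, SE 0.23). In Spink4 the 48h libraries were almost equal, and in Cma2 and Fcgbp they were unequal but above every 24h value. Adm, the vasodilator peptide adrenomedullin, had 16.4 and 25.99 FPKM at 48h, against 4.64 and 7.48 FPKM at 24h (adjusted p = 0.0253 for a log2 fold change of 1.65, SE 0.29). Ptn, the growth factor pleiotrophin, had 24.5 and 25.2 FPKM at 48h, against 8.11 and 9.07 FPKM at 24h (adjusted p = 0.0132 for a log2 fold change of 1.43, SE 0.21). Gpha2, a subunit of thyrostimulin, had 14.4 and 12.8 FPKM at 48h, against 3.698 and 5.93 FPKM at 24h (adjusted p = 0.0454 for a log2 fold change of 1.36, SE 0.29). All 3 encode secreted signals. Acoxl, related to peroxisomal acyl-CoA oxidases, had 6.64 and 6.78 FPKM at 48h, against 0.752 and 2.12 FPKM at 24h (adjusted p = 0.0098 for a log2 fold change of 1.72, SE 0.24). Mxd3, a partner of MAX in the MYC network that is known from dividing cells, had 24.3 and 22.2 FPKM at 48h, against 9.03 and 7.48 FPKM at 24h (adjusted p = 0.0183 for a log2 fold change of 1.39, SE 0.23). Ankle1, a nuclease with a LEM domain, had 15.4 and 12.98 FPKM at 48h, against 6.12 and 3.898 FPKM at 24h (adjusted p = 0.0442 for a log2 fold change of 1.36, SE 0.29). These were higher in both libraries of 48h. Paqr7, a membrane progestin receptor, had 72.4 and 91.03 FPKM at 48h, against 26.6 and 39.3 FPKM at 24h (adjusted p = 0.011 for a log2 fold change of 1.301, SE 0.18), and Abhd11os had 18.98 and 23.5 FPKM at 48h, against 6.74 and 8.66 FPKM at 24h (adjusted p = 0.0089 for a log2 fold change of 1.35, SE 0.18), and the exon bases it shares with the opposite strand are those of Abhd11. Within these genes the calls of Mxd3 and Ankle1 were lost with any 1 of the 48h or 24h libraries left out, and Spink4 was lost only without 48h library 3.

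Several of the 15 largest falls named by rule were in genes whose 8 earlier libraries all lay above both 48h libraries. Kcnk16, a background potassium channel, had 1.96 and 1.299 FPKM at 48h, against 16.7 and 15.5 FPKM at 24h (adjusted p = 0.00105 for a log2 fold change of -2.71, SE 0.22). It lies at chr14:20261376-20269199 on the minus strand (GRCm38). Over the earlier times it had 16.8 and 19.5 FPKM at 0h, 11.4 and 17.9 at 6h and 22.6 and 16.7 at 12h. Its level at 48h was thus below all 8 other libraries. Selenbp1, a selenium-binding protein with methanethiol oxidase activity, had 15.4 and 15.9 FPKM at 48h, against 70.8 and 55.9 FPKM at 24h (adjusted p = 0.000529 for a log2 fold change of -1.94, SE 0.13). It was lower at 24h already, since at 0h it had 151 and 162 FPKM and at 12h 119.9 and 115 FPKM. Arg1, arginase, had 15.8 and 8.54 FPKM at 48h, against 70.5 and 63.6 FPKM at 24h (adjusted p = 0.00239 for a log2 fold change of -2.42, SE 0.22). Tubb3, a beta-tubulin best known from neurons, had 17.9 and 11.6 FPKM at 48h, against 76.8 and 50.4 FPKM at 24h (adjusted p = 0.00649 for a log2 fold change of -2.03, SE 0.23). In Arg1 and Tubb3 as in Kcnk16 every earlier library lay above both 48h libraries. Fbp1, the phosphatase of gluconeogenesis, had 52.9 and 43.2 FPKM at 48h, against 193 and 131 FPKM at 24h (adjusted p = 0.00645 for a log2 fold change of -1.71, SE 0.19). Sptssb, a small subunit of serine palmitoyltransferase, had 4.69 and 4.02 FPKM at 48h, against 18.5 and 13.4 FPKM at 24h (adjusted p = 0.00649 for a log2 fold change of -1.65, SE 0.19). Slc39a8, a zinc and manganese importer, had 21.7 and 13.2 FPKM at 48h, against 57.6 and 45.7 FPKM at 24h (adjusted p = 0.00836 for a log2 fold change of -1.54, SE 0.1997). In each of these genes both 48h libraries lay below all 8 earlier libraries. Inmt, an N-methyltransferase, had 5.29 and 1.93 FPKM at 48h, against 23.5 and 12.4 FPKM at 24h (adjusted p = 0.0307 for a log2 fold change of -2.08, SE 0.39), with the libraries of each time far apart. Fabp9, a fatty acid binding protein, had 1.77 and 1.94 FPKM at 48h, against 6.99 and 8.86 FPKM at 24h (adjusted p = 0.011 for a log2 fold change of -1.64, SE 0.23), and it shares exon bases with a predicted gene on the same strand. Apobec2, a muscle member of the deaminase family, had 10.5 and 12.3 FPKM at 48h, against 53.2 and 25.6 FPKM at 24h (adjusted p = 0.0422 for a log2 fold change of -1.62, SE 0.34).

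The position of the called genes against earlier times was set by the same libraries and is given as description. The 166 genes higher at 48h had a median log2 fold change of 0.89 for 48h against 24h, of -0.22 for 24h against 0h and of 0.63 for 48h against 0h. The 142 lower genes had medians of -0.97, 0.12 and -0.81 in the same order of comparisons. The mean at 48h was closer to 0h than the mean at 24h was in 47 of the 166 and in 35 of the 142.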

How the data were processed

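Whole back skin from 5 times after cyclophosphamide was sequenced as RNA, with 2 libraries a time. The mm10 build, Cufflinks 2.2.1 and TopHat2 2.1.1 are named per the submitters' processing notes, with no role or order stated. The deposited table holds 24358 rows and 10 value columns. Its header names no unit, and the authors' values are taken as FPKM from the use of Cufflinks and from the values themselves. FPKM keeps no read depth, so depth per library is unknown. The columns carry the numbers 2 and 3 where the labels carry 1 and 2, so columns were matched to times only and libraries are called by the column's number.

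Of the rows, 27 with a date in place of a symbol were left out, and the 13625 genes that reached 1 FPKM in 2 or more of the 10 libraries were tested. Values were taken as log2(FPKM + 1), so fold changes understate those of low genes. limma 3.58.1 in R 4.3.3 fitted 1 mean per time over all 10 libraries, with 5 residual degrees of freedom and an intensity trend in the prior variance, and p-values were adjusted by Benjamini-Hochberg over all genes tested at a threshold of 0.05. In the fits that leave out a library, a time has 1 library, which is assumed to vary like the others. The script was tested on simulated data. The 45 gene lists and all members were chosen with earlier results of these data known. Named by rule were the 15 largest called rises and 15 largest called falls with a mean of at least 5 FPKM at the higher time, up to 4 calls per list, and a set of marker genes. From the largest rises and falls, predicted genes, clones and rows naming several genes were left out. Genes whose 48h and 24h libraries overlapped were left out as well. Other list members and genes named beside them were chosen after their values were seen. A few genes are not reported here. Gene positions are from GENCODE M21 (GRCm38), in which 311 of 320 called or named genes were found once, and promoters are from RefSeq (GRCm38.p6). Alternatives were pseudocounts of 0.1 and 5, other filters and other scalings, of which 1 left hair genes out of the library sum. Further fits were without the trend, with a replicate block, of 24h and 48h alone, and with each library left out.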

Additional observations from a re-analysis of the deposited data

How the results depend on the processing

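All 308 calls kept their sign in 19 of the 20 other fits, and the filter at a mean of 5 FPKM tested 249 of them, which also kept it. As the 48h and 24h libraries of the calls did not overlap, only another scaling could have turned a sign. The number of calls moved. With no filter on low values 112 genes passed (52 higher, 60 lower), and 1 passed the second difference. With median-of-ratios scaling 87 were higher, with 11 in the second difference, and with quantile normalization 220 were lower. The 24h and 48h libraries fitted alone gave 0 in either direction, 0 higher and 0 lower. With each library left out in turn, the calls ranged from 18 to 352, those higher from 6 to 187, those lower from 12 to 165, and the second difference from 0 to 3. The pseudocounts, the stricter filter, leaving hair genes out of the scaling and leaving out the trend kept the total within 1.5 times of 308, between 241 and 359.

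Libraries of different times share only a column number, and same-numbered libraries deviated together weakly, with correlations from -0.104 to 0.216 (median 0.0993, 5 of 10 pairs over 0.1), so the numbers were not taken to pair them. A replicate block by that number gave 507 calls, of which 297 were higher, and 32 in the second difference.

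Of the genes named by rule, 4 changed sign in at least 1 fit, none of them called. Over the fits with a library left out, Cdkn1a ranged from -0.099 to 0.018, Mdm2 from -0.0089 to 0.21, Shh from -0.23 to 0.43 and Adipoq from -0.42 to 0.77. Cdkn1a turned to 0.018 without 24h library 2 and 0.011 without 48h library 3. Adipoq turned to -0.21 without 24h library 2 and -0.42 without 48h library 3. Shh turned to -0.23 without 48h library 2 and Mdm2 to -0.0089 without 48h library 3. The cause of these changes was not tested. With 2 libraries a time and depth unknown, the precision of low values is not known.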

Other observations

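Genes in none of the lists, chosen here after their values were seen, give further values of the step. Several that are known from dividing cells were higher at 48h. Kifc1, a kinesin that focuses spindle poles, had 27.4 and 27.7 FPKM at 48h, against 14.9 and 9.74 FPKM at 24h (adjusted p = 0.0232 for a log2 fold change of 1.13, SE 0.197). Ncapd2, a condensin subunit, had 19.8 and 21.4 FPKM at 48h, against 10.01 and 8.76 FPKM at 24h (adjusted p = 0.0162 for a log2 fold change of 1.06, SE 0.17). Cenpm, a centromere protein, had 28.6 and 29.2 FPKM at 48h, against 14.5 and 11.9 FPKM at 24h (adjusted p = 0.0479 for a log2 fold change of 1.08, SE 0.24). Their 48h libraries lay above all 24h values. Hmgn2, a nucleosome-binding protein, had 186 and 184 FPKM at 48h, against 98.3 and 90.4 FPKM at 24h (adjusted p = 0.0189 for a log2 fold change of 0.96, SE 0.16). Nfyb, a subunit of the NF-Y factor that binds CCAAT, had 13.4 and 18.05 FPKM at 48h, against 5.49998 and 6.85 FPKM at 24h (adjusted p = 0.0125 for a log2 fold change of 1.21, SE 0.17). Fa2h, which hydroxylates fatty acids of skin lipids, had 124 and 127 FPKM at 48h, against 42.8 and 65.1 FPKM at 24h (adjusted p = 0.0218 for a log2 fold change of 1.23, SE 0.21). Scube2, a secreted protein that helps release hedgehog ligands, had 3.31 and 5.21 FPKM at 48h, against 0.72999 and 0.643 FPKM at 24h (adjusted p = 0.0162 for a log2 fold change of 1.62, SE 0.25). Hamp, the iron hormone hepcidin, had 2.27 and 3.64 FPKM at 48h and was listed at 0 in both 24h libraries, so no fold is given.

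Other genes chosen in the same way were lower at 48h. Mt4, a metallothionein of stratified epithelia, had 2035 and 2173 FPKM at 48h, against 4443 and 3986 FPKM at 24h (adjusted p = 0.0269 for a log2 fold change of -1.0005, SE 0.18). Anxa1, a calcium-binding annexin, had 390.1 and 325 FPKM at 48h, against 687 and 686 FPKM at 24h (adjusted p = 0.0098 for a log2 fold change of -0.95, SE 0.13). Aqp3, the water and glycerol channel of keratinocytes, had 43.4 and 32.9 FPKM at 48h, against 76.3 and 85.1 FPKM at 24h (adjusted p = 0.014 for a log2 fold change of -1.07, SE 0.16). The times were apart in all 3. Lap3, an aminopeptidase, had 144 and 120.4 FPKM at 48h, against 307 and 263 FPKM at 24h (adjusted p = 0.0089 for a log2 fold change of -1.105, SE 0.15). Ctsc, the protease cathepsin C, had 31.9 and 28.8 FPKM at 48h, against 73.02 and 67.4 FPKM at 24h (adjusted p = 0.00793 for a log2 fold change of -1.18, SE 0.15). Ero1l, an oxidase of the endoplasmic reticulum that forms disulfide bonds, had 18.6 and 15.6 FPKM at 48h, against 43.2 and 45.2 FPKM at 24h (adjusted p = 0.00527 for a log2 fold change of -1.32, SE 0.13). Of the genes in these paragraphs, Hamp and Ero1l passed with each library left out in turn, and each of the others was lost without at least 1 library.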
